A study of Homo sapiens with 9 samples.

Results

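The genes that encode inhibitors of cyclin-dependent kinases (CDKs) and their neighbours at chromosome 9p21 were examined in RNA-seq libraries of LNCaP:C4-2, a prostate cancer line derived from LNCaP that grows without androgen. The 9 genes were taken by symbol from the family and the locus. They were the INK4 genes CDKN2A, CDKN2B, CDKN2C and CDKN2D, the CIP/KIP genes CDKN1A, CDKN1B and CDKN1C, the antisense RNA gene CDKN2B-AS1 and the metabolic gene MTAP. These are 9 of the 60675 genes counted, and all 9 were among the 19278 genes that passed the filter on low counts.

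The study compared cells that carried a short hairpin RNA (shRNA) against METTL3, the methyltransferase that writes N6-methyladenosine on RNA, with cells that carried a scrambled hairpin. The hairpin was shScramble in 3 libraries, shMETTL3 guide 2 in another 3 and shMETTL3 guide 1 in the last 3. All 9 libraries were of the parental line LNCaP:C42 (the labels' spelling), transduced with a doxycycline-inducible pLKO.1-puro lentivirus made in HEK293T cells, selected with puromycin, kept in phenol-red-free medium with charcoal-stripped serum and given 1 μg/ml doxycycline for 6 days. The controls therefore carried the vector, the selection and the doxycycline too. The study's methods speak of stable selected clones without saying how many were used per hairpin. The sample titles name a vehicle. Each group is 1 transduced line as far as the labels tell, and nothing says that the 3 libraries of a group came from separate cultures, so p-values measure the spread between these libraries, which may be technical.

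As background, INK4 proteins bind CDK4 and CDK6 and keep them from pairing with D-type cyclins, whereas CIP/KIP proteins bind a wider range of cyclin-CDK complexes, in particular those of CDK2. Both brake the phosphorylation of the retinoblastoma protein and so the entry into DNA synthesis. CDKN2A has alternative first exons and encodes p16INK4a and, in another reading frame, p14ARF, which binds MDM2. CDKN2B encodes p15INK4b, and CDKN2B-AS1 is a long non-coding RNA, also called ANRIL, transcribed in the opposite direction across the locus. MTAP encodes methylthioadenosine phosphorylase of the methionine salvage pathway and is often lost together with CDKN2A in tumours that have deletions of 9p21.

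The hairpin targets are shown because the comparisons rest on them.
shMETTL3 guide 2: gctgcacttcagacgaattat
shMETTL3 guide 1: cgtcagtatcttgggcaagtt
Each 21-base target matched 5 transcripts of METTL3 and 0 of the 87 transcripts of the 9 genes. METTL3 RNA was lower in all 3 guide 2 libraries (15.8 to 16.6 CPM, counts relative to the library size as scaled by edgeR's TMM method) than in the shScramble libraries (29.8 to 33.0 CPM), a log2 fold change of -0.95. In the libraries labelled guide 1 METTL3 ranged from 29.4 to 30.1 CPM and was not called (log2 fold change -0.08, adjusted p = 0.251 by the quasi-likelihood test of edgeR), so they are referred to by their label. The total count per library lay between 21899501 and 30897639. The number of genes with at least 1 count was 24884 to 26505 in guide 2 libraries, below the 28459 to 29586 of shScramble and the 29193 to 29628 of guide 1. Of the luminal prostate markers, all 9 were detected in every group, whereas the basal markers KRT5, KRT6A and TP63, the stromal marker DCN and the T cell marker CD3E had 0 counts in all 9 libraries. The stromal list was not absent as a whole, since COL1A1 had 530 to 1406 counts and ACTA2 12 to 101.

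The widest differences among the 9 genes were those of CDKN2A, CDKN2B and CDKN2B-AS1 at 9p21. They were lowest with guide 2, intermediate with shScramble and highest in the libraries labelled guide 1. MTAP and CDKN2C were higher in both hairpin groups than with shScramble. CDKN1A, which encodes p21, was lower in both. Both comparisons use the same 3 shScramble libraries, so they are not independent. Below, hairpin stands for the group so labelled. As each group is 1 transduced line as far as the labels tell, effects of the hairpin and of the line cannot be told apart. The call rule was a fold change of 1.5 or more together with a p-value from edgeR's quasi-likelihood test under 0.05 after Benjamini-Hochberg adjustment over all genes tested. By this rule 6 of the 9 genes were called with guide 2 against shScramble, 2 higher (MTAP and CDKN2C) and 4 lower, where 29.3% of all tested genes were called, 8.85% higher and 20.4% lower. With scaling by library size alone the split was 0 higher and 4 lower, and with the 6 libraries of that comparison alone it was 1 higher and 3 lower, since CDKN2B-AS1 passed the filter through its counts in the libraries labelled guide 1 and MTAP fell below the fold limit. Against the same shScramble libraries, 6 of the 9 were called in the libraries labelled guide 1, 5 higher and 1 lower, where 37.7% of all genes were called, 21.2% higher and 16.5% lower. CDKN2B-AS1, which passed the filter only through these libraries, is among the 5, and among the 3 lower in the comparison that follows. Guide 2 against guide 1, the direct test of whether these 2 groups of libraries differ, called 4 of the 9, 1 higher and 3 lower, where 47.3% of all genes were called, 19.1% higher and 28.2% lower. The median log2 fold change of the 9 genes was -0.37, 0.89 and -0.21 in these comparisons, beside -0.04, -0.02 and -0.06 over all tested genes. The libraries of the groups compared did not overlap for 8, 9 and 7 of the 9 genes, beside 66.5%, 71% and 75.8% of all genes, so that a lack of overlap was common in these data.

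**Figure D1:**
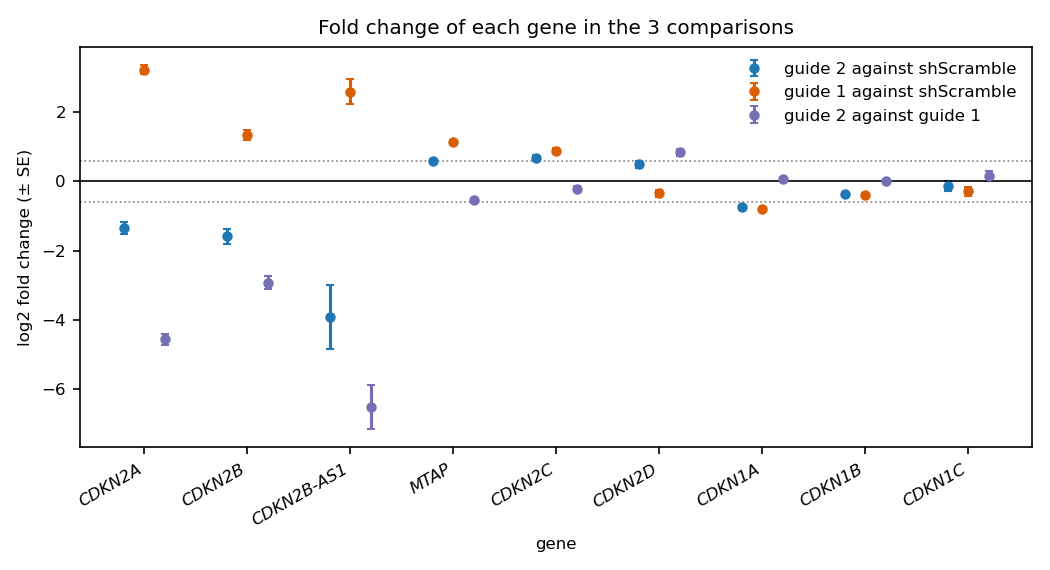
Log2 fold change of each of the 9 genes in the 3 comparisons, with bars for the standard error and dotted lines at the 1.5-fold limit. CDKN2A, CDKN2B and CDKN2B-AS1 lie below 0 with guide 2 and above 0 in the libraries labelled guide 1, whereas CDKN1A lies at -0.73 and -0.81.

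CDKN2A (ENSG00000147889) occupies 21967753 to 21995301 of chromosome 9 (GRCh38, minus strand), with 10 exon parts and 4329 exon bases in the deposited annotation. CDKN2B (ENSG00000147883) follows on the same strand from 22002903 to 22009363, with 2 exon parts. CDKN2B-AS1 (ENSG00000240498) runs on the plus strand from 21994778 to 22121097 with 21 exon parts, and so overlaps the 5′ end of CDKN2A and spans the whole of CDKN2B. MTAP (ENSG00000099810) occupies 21802543 to 21937651 on the plus strand, with 14 exon parts. Because CDKN2A and CDKN2B moved together, their promoter windows are shown, with that of CDKN2B-AS1, which overlaps the 5′ end of CDKN2A and spans CDKN2B. The windows run from 250 bases before to 50 bases after the start in RefSeq (GRCh38.p14), 5′ to 3′ on the gene's own strand. The GC box GGGCGG is in capitals on either strand (CCGCCC where it is on the other).
CDKN2A, start of p14ARF, minus strand, chr9:21995275-21995574: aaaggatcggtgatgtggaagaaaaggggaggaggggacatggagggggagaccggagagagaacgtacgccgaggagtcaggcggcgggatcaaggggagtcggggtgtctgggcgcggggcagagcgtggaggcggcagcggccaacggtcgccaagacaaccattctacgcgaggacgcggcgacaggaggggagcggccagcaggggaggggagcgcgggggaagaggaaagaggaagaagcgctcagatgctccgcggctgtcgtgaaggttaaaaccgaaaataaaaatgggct
CDKN2A, start of p16INK4a, minus strand, chr9:21974808-21975107: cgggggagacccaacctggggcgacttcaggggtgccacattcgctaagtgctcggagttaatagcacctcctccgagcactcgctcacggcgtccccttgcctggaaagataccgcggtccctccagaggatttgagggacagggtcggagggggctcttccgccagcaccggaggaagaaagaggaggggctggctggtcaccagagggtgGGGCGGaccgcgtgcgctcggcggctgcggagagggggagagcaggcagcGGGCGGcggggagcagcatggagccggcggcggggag
CDKN2B, minus strand, chr9:22009256-22009555: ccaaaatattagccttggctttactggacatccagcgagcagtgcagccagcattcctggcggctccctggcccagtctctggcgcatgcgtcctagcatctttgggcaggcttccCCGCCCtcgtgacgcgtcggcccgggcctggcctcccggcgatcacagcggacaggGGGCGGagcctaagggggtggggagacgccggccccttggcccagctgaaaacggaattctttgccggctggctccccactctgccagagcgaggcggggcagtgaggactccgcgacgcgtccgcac
CDKN2B-AS1, plus strand, chr9:21994541-21994840: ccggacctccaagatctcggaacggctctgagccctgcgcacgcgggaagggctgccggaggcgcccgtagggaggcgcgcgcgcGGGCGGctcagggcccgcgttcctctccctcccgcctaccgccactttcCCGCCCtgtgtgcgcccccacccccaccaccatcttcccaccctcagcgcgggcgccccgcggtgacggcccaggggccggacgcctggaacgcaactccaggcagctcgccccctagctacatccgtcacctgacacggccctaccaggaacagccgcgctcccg
The p14ARF window held 28 CpG dinucleotides and 0 GC boxes. The p16INK4a window held 26 CpG and 2 GC boxes, the CDKN2B window 25 and 2, and the CDKN2B-AS1 window 36 and 2. Over 35116 promoters of the same length the median was 14 CpG, and 45.0% held a GC box on either strand, with overlapping matches counted. Windows with at least 36 CpG made up 12.7% of promoters and those with at least 25 CpG made up 32.0%, so CpG-rich windows of this kind were common. The MTAP window held 15 CpG, near the median, and 2 GC boxes, as many as the CDKN2B window.

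CDKN2A showed the widest range of the INK4 and CIP/KIP genes between groups. Its counts were 508, 587 and 500 with shScramble, 191, 191 and 142 with guide 2 and 5624, 4213 and 5301 in the libraries labelled guide 1. As CPM these were 16.4, 18.4 and 21.9, then 8.28, 7.61 and 6.44, then 197.5, 151.7 and 177.3. Every guide 2 library was therefore below every shScramble library, and every guide 1 library was above both by a wide margin. The means were 18.9 ± 2.77 CPM with shScramble, 7.44 ± 0.933 CPM with guide 2 and 175.5 ± 23.0 CPM in the libraries labelled guide 1 (SD, n = 3 each). The log2 fold change of CDKN2A was 3.22 (standard error 0.131, adjusted p = 3.58e-08 from edgeR) in the libraries labelled guide 1, that is 9.35-fold higher. With guide 2 it was -1.33 (standard error 0.174, adjusted p = 1.91e-04 from edgeR), that is 2.52-fold lower. The direct comparison of the hairpins gave -4.56 (standard error 0.152, adjusted p = 6.25e-09 from edgeR), a level 23.5-fold lower with guide 2 than with guide 1. In RNA of bulk cells, fewer cells of a kind and less RNA per cell cannot be told apart. Counts of the whole gene cannot separate p16INK4a from p14ARF, and the strand setting of the counting is not stated, so reads on the 341 bases that CDKN2A shares with CDKN2B-AS1 (7.88% of CDKN2A's exon bases) could belong to either gene.

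CDKN2B was far less abundant and moved in the same directions. It had 97, 98 and 55 counts with shScramble, 29, 23 and 16 with guide 2 and 207, 201 and 228 in the libraries labelled guide 1. The CPM were 3.14, 3.08 and 2.41, then 1.26, 0.917 and 0.725, then 7.27, 7.24 and 7.63. None of the 3 groups overlapped another. The log2 fold change with guide 2 was -1.58 (standard error 0.211), or 2.99-fold lower, and in the libraries labelled guide 1 it was 1.34 (standard error 0.15), or 2.54-fold higher. The adjusted p from edgeR was 3.05e-07 and 7.01e-09 respectively. Guide 2 against guide 1 gave -2.92 (standard error 0.188, adjusted p = 4.75e-14 from edgeR). CDKN2A and CDKN2B arose by duplication and share sequence. The longest identical run between their transcripts was 80 bases, 0.776% of the 50-base windows of CDKN2B occurred in CDKN2A and 0% of its 150-base windows did.

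CDKN2B-AS1 was near the limit of detection in every group but guide 1. It had 9, 11 and 4 counts with shScramble, 0, 0 and 1 with guide 2 and 62, 41 and 44 in the libraries labelled guide 1. The groups did not overlap, and all 3 guide 2 libraries lay at or under the floor of 3 counts, which is 0.0971 to 0.137 CPM. Summed over libraries and scaled by TMM-adjusted library size, the shScramble level was 19.7 times that of guide 2, with a 95% exact interval for counting error of 3.21 to 810 since it rests on 24 counts against 1. The guide 1 level was 6.08 times that of shScramble (interval 3.93 to 9.8, 147 counts against 24). The 341 bases shared with CDKN2A are 8.07% of the exon bases of CDKN2B-AS1. CDKN2A had 4213 to 5624 counts in the libraries labelled guide 1, and the strand setting is not stated. Some counts of CDKN2B-AS1 could therefore be reads of CDKN2A, which the intervals do not cover. The fitted log2 fold change was -3.91 with guide 2 (adjusted p = 6.02e-04 from edgeR) and 2.59 in the libraries labelled guide 1 (adjusted p = 3.3e-07 from edgeR). The former depends on the prior count and is not a bound. At a minimum mean of 1 CPM, or with the filter applied to the 6 libraries of the guide 2 comparison alone, the gene was not tested.

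MTAP, which lies on the side of CDKN2A away from CDKN2B, was not lowest with guide 2. Between them lies CDKN2A-DT (21966929 to 21967751), which had 1, 1 and 0 counts with shScramble, 0 in all 3 guide 2 libraries and 11, 1 and 9 in the libraries labelled guide 1, and was not tested. The CPM of MTAP were 33.4, 33.6 and 33.6 with shScramble, 49.3, 53.7 and 48.8 with guide 2 and 69.5, 76.1 and 75.1 in the libraries labelled guide 1. The groups were fully separate, and MTAP was higher with both hairpins. The log2 fold change of MTAP was 1.13 in the libraries labelled guide 1 (standard error 0.0553, adjusted p = 1.74e-16 from edgeR), or 2.20-fold. With guide 2 it was 0.60 (standard error 0.0569, adjusted p = 7.02e-10 from edgeR), or 1.51-fold, just past the 1.5-fold limit. That call was lost with scaling by library size alone (0.45), with a minimum mean of 1 CPM (0.55), with the 6 libraries alone (0.58), without guide 2 replicate 2 (0.55) and in a test against the 1.5-fold limit itself (adjusted p = 0.625 from edgeR's glmTreat). The adjusted p-value stayed below 0.05 in all of these but the last. Guide 2 against guide 1 gave -0.54 (adjusted p = 6.62e-10 from edgeR), below the fold limit.

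**Figure D2:**
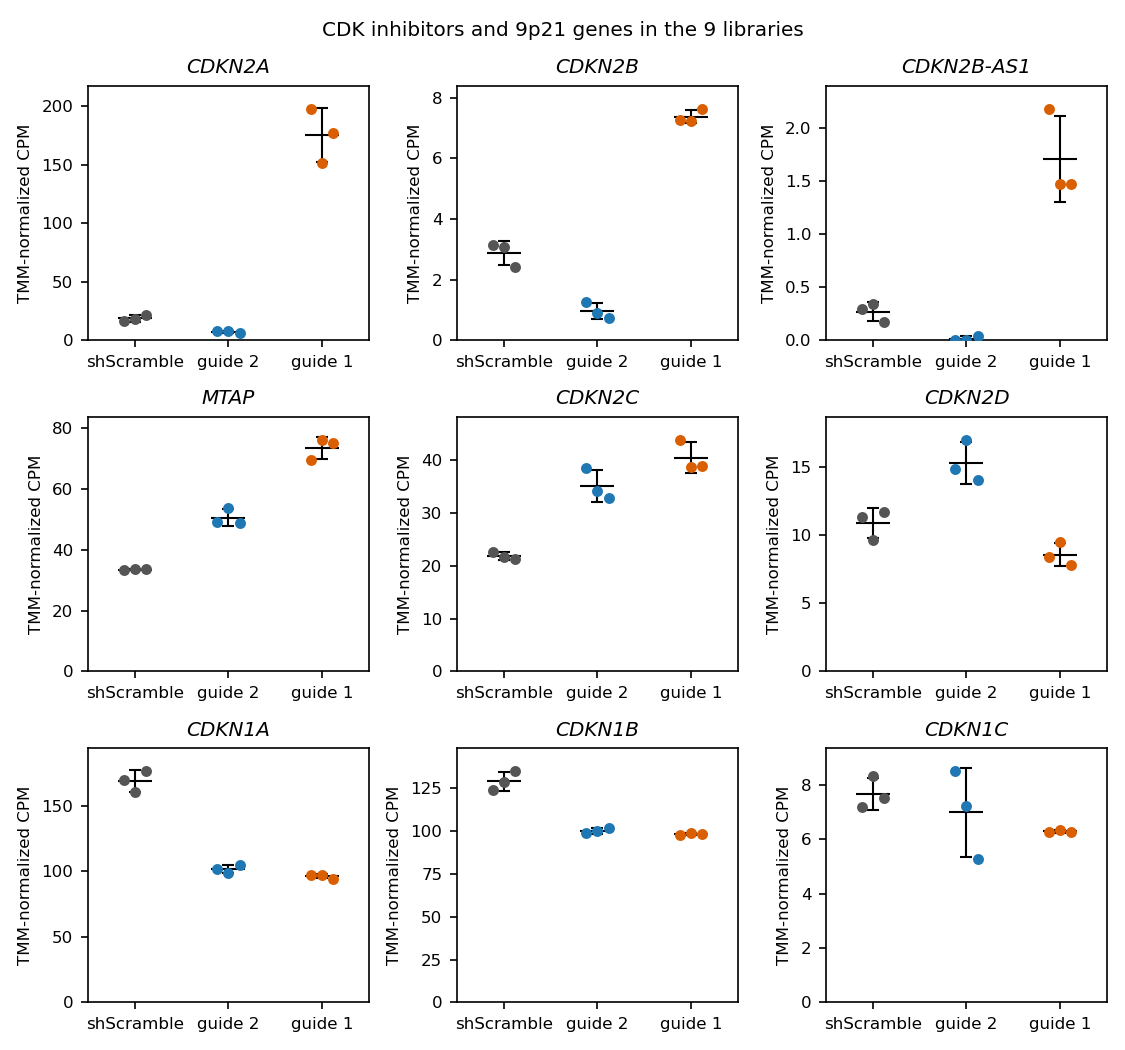
TMM-normalized CPM of the 9 genes in each library (points), with the mean and SD of the 3 libraries of each group (black), and a vertical axis that starts at 0 for each gene. CDKN2A reached 151.7 to 197.5 CPM in the libraries labelled guide 1 and stayed between 6.44 and 21.9 CPM in the other 6, whereas CDKN1A was 160.4 CPM or more with shScramble and 105.0 CPM or less with either hairpin.

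Markers of another cell type moved with these 9p21 genes. A list of 10 genes known to be high in HEK293 lines (NEFL, NEFM, INA, HMGA2, LIN28B, IGF2BP1, IGF2BP3, PAX2, UCHL1 and VIM), the cells named as the source of the lentivirus, summed to 94.3 to 102 CPM in the shScramble libraries, 39.8 to 46.2 CPM with guide 2 and 603.4 to 643.5 CPM in the libraries labelled guide 1. Of the 10, 9 were called lower with guide 2 and 9 higher in the libraries labelled guide 1 (median log2 fold change -2.73 and 3.10). Among all tested genes 20.4% were called lower with guide 2 and 21.2% higher in the libraries labelled guide 1. The marker lists were chosen with earlier results of these data known. IGF2BP3 was called in neither. Its means were 37.5 CPM with shScramble, 34.6 CPM with guide 2 and 55.4 CPM in the libraries labelled guide 1. It thus made up most of the guide 2 sum. In the guide 2 libraries 0 of the 10 were at 0 counts throughout. The shScramble level was 10.8% of the guide 1 level for CDKN2A, 39.0% for CDKN2B and 15.8% for CDKN2B-AS1, beside a median of 11.8% (2.81% to 67.7%) over the 10 genes. The guide 2 level was 4.24%, 13.1% and 0.885% of the guide 1 level for these 3 genes, beside a median of 1.56% (0.137% to 62.5%) over the list. The 9 luminal prostate markers summed to 2111 to 2138 CPM with shScramble, 2275 to 2418 CPM with guide 2 and 1075 to 1104 CPM in the libraries labelled guide 1. FOLH1 made up the largest part of these sums (means of 1210, 1301 and 544.1 CPM). In the libraries labelled guide 1, FOLH1, HOXB13, KRT8 and KRT18 were called lower and 0 of the 9 higher, beside 16.5% and 21.2% of all tested genes. With guide 2, HOXB13 was among the 2 called higher and KLK3 was the 1 called lower. The median log2 fold change of the list with guide 2 was -0.12. Of all tested genes 8.85% were called higher with guide 2 and 20.4% lower. Summed basal markers stayed at or under 0.199 CPM and leukocyte markers at or under 0.570 CPM in every library, and stromal markers lay at 42.5 to 46.3, 33.9 to 37.3 and 21.3 to 28.3 CPM. COL1A1 made up most of that stromal sum (means of 43.5, 35.3 and 21.1 CPM), whereas ACTA2, the other stromal gene tested, was called higher in the libraries labelled guide 1 (log2 fold change 2.10). The part of these other cell type markers in the differences at 9p21 was not tested.

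**Figure D3:**
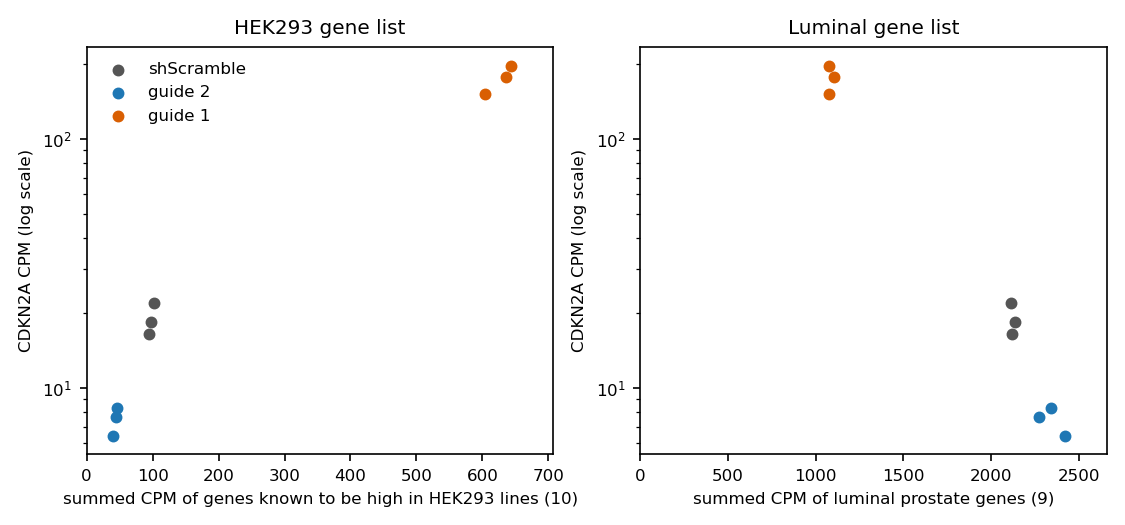
CDKN2A (CPM, log axis) in each of the 9 libraries against the summed CPM of 10 genes known to be high in HEK293 lines (left) and of 9 luminal prostate genes (right). The libraries labelled guide 1 combine 151.7 CPM of CDKN2A or more with the highest HEK293 sums (603.4 to 643.5 CPM) and the lowest luminal sums (1075 to 1104 CPM).

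The wider region was examined to see how far along chromosome 9 these differences reached. Within 2 Mb of CDKN2A and CDKN2B, from 19967753 to 24009363, the annotation holds 78 genes, of which 41 had 0 counts in all libraries and 13 were tested. With guide 2 against shScramble 8 of the 13 were called, 1 higher (MTAP) and 7 lower. Of all genes 29.3% were called, 8.85% higher and 20.4% lower. With scaling by library size alone the split in the window was 0 higher and 9 lower. In the libraries labelled guide 1, 7 were called, 6 higher and 1 lower, beside 37.7% of all genes, 21.2% higher and 16.5% lower. Between the hairpins 8 were called and all 8 were lower with guide 2, beside 47.3% of all genes, 28.2% lower and 19.1% higher. CDKN2B-AS1 and DMRTA1, called in all 3 comparisons, passed the filter only through their counts in the libraries labelled guide 1. The 13 include the 4 locus genes. Of the 9 neighbours, 2 were called higher and 1 lower in the libraries labelled guide 1, and 5 lower between the hairpins. Beside the 4 locus genes described above, 4 of 9 neighbours were called lower with guide 2 and 0 higher, where 20.4% and 8.85% of all genes were. All 4 had low counts, and DMRTA1, described below, passed the filter only through its counts in the libraries labelled guide 1. With the filter applied to the 6 libraries of this comparison alone, the calls among all genes of the window went from 8 to 4, 0 higher and 4 lower. HACD4, an enzyme of very long chain fatty acid synthesis, had 23, 21 and 19 counts with shScramble and 7, 3 and 4 with guide 2 (log2 fold change -1.86), against 26, 13 and 12 in the libraries labelled guide 1. An antisense gene within MTAP (ENSG00000265194) had 19, 30 and 19, then 1, 9 and 5, then 39, 34 and 31 counts. Its log2 fold change was -1.88 with guide 2 and 0.60, not called, in the libraries labelled guide 1.

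ELAVL2, which encodes a neuronal RNA-binding protein, was ordered as CDKN2A was. It had 43, 40 and 28 counts with shScramble, 13, 32 and 12 with guide 2 and 281, 272 and 283 in the libraries labelled guide 1, with log2 fold changes of -0.68 and 2.90. The shScramble and guide 2 counts of ELAVL2 overlapped. DMRTA1 had 5, 4 and 1 counts with shScramble, 0 in all 3 guide 2 libraries and 18, 15 and 20 in the libraries labelled guide 1, and although called in both comparisons it is too close to the floor for a fold change. The neighbours with more counts had smaller differences. FOCAD, MLLT3 and KLHL9 had means of 71.7, 42.7 and 79.1 CPM with shScramble and log2 fold changes of 0.22, -0.49 and 0.03 with guide 2, and of 0.21, 0.14 and 0.45 in the libraries labelled guide 1, none of them called. MLLT3 was called between the hairpins (-0.63, 1.55-fold lower with guide 2), and KLHL9 (-0.42) and FOCAD (0.01) were not. FOCAD-AS1 was called lower in the libraries labelled guide 1 (-1.04, from 24, 18 and 12 counts to 16, 5 and 5) and LINC01239 was called in neither comparison. At a minimum mean of 1 CPM the counts called fell to 3 with guide 2 and 4 in the libraries labelled guide 1.

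**Figure D4:**
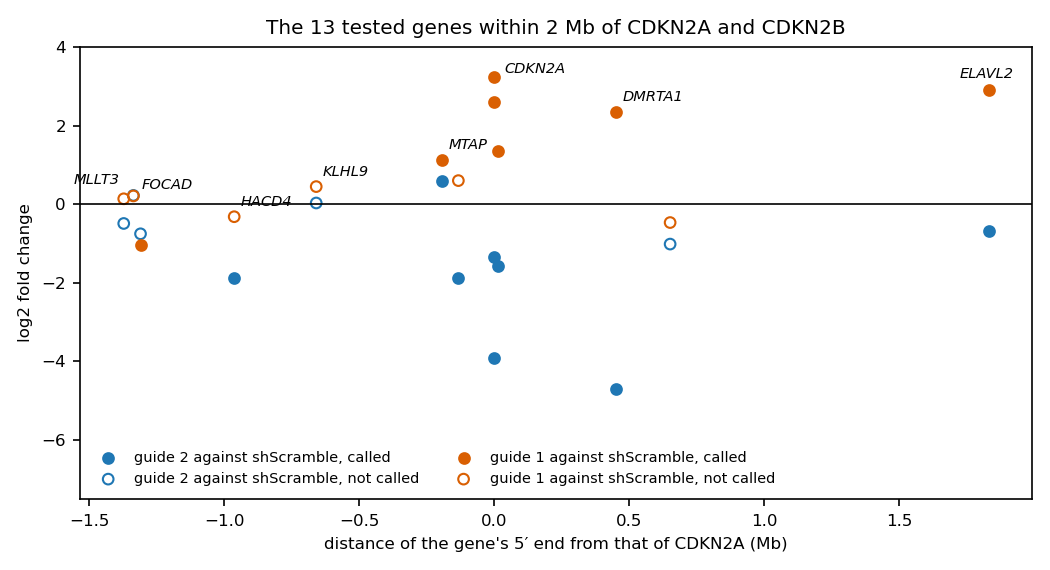
Log2 fold change of the 13 tested genes within 2 Mb of CDKN2A and CDKN2B against the distance of each gene's 5′ end from that of CDKN2A (Mb), for guide 2 (blue) and guide 1 (orange) against shScramble, with filled points for called genes. MTAP lies at 1.13, CDKN2B at 1.34 and CDKN2A at 3.22 in the libraries labelled guide 1, while FOCAD, MLLT3 and KLHL9 lie between -0.49 and 0.45. The fitted values of DMRTA1 and CDKN2B-AS1 with guide 2 rest on counts of 0 or 1.

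The INK4 genes outside 9p21 showed smaller differences. CDKN2C, which encodes p18INK4c (chromosome 1, 50960745 to 50974633, plus strand), measured 22.6, 21.6 and 21.2 CPM with shScramble, 38.4, 34.0 and 32.7 CPM with guide 2 and 43.8, 38.7 and 38.9 CPM in the libraries labelled guide 1. Both hairpin groups lay above all 3 controls. The log2 fold change was 0.68 with guide 2 (standard error 0.0712, adjusted p = 3.59e-09 from edgeR) and 0.89 in the libraries labelled guide 1 (standard error 0.0694, adjusted p = 5.32e-12 from edgeR). With scaling by library size alone the former was 0.53 and no longer called, and the test against the 1.5-fold limit gave an adjusted p of 0.132 (glmTreat). The hairpins differed from each other by -0.21 (adjusted p = 0.00768 from edgeR), short of the fold limit.

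CDKN2D, which encodes p19INK4d (chromosome 19, 10566462 to 10569059, minus strand), separated the hairpins. It measured 11.4, 9.64 and 11.7 CPM with shScramble, 14.9, 17.0 and 14.1 CPM with guide 2 and 8.39, 9.50 and 7.83 CPM in the libraries labelled guide 1. Guide 2 libraries were all above the controls and guide 1 libraries all below them. Neither difference from shScramble reached the fold limit, at log2 fold changes of 0.50 (adjusted p = 1.28e-04 from edgeR) and -0.34 (adjusted p = 0.00576 from edgeR). Guide 2 against guide 1 did, at 0.84 (standard error 0.104, adjusted p = 3.71e-08 from edgeR), or 1.79-fold higher with guide 2. CDKN2D was thus ordered opposite to its relatives CDKN2A and CDKN2B.

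Among the CIP/KIP genes, CDKN1A moved most and in the same direction with both hairpins. CDKN1A encodes p21 (chromosome 6, 36676460 to 36687339, plus strand). Its promoter window in RefSeq is shown for comparison with those of 9p21, with GC boxes in capitals, the last 2 of which overlap.
CDKN1A, plus strand, chr6:36678464-36678763: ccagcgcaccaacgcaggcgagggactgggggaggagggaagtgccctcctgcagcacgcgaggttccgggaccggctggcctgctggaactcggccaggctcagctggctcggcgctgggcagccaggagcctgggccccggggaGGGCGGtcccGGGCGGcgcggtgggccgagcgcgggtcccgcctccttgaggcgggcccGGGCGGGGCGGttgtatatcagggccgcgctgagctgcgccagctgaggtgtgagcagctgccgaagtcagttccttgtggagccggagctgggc
It held 29 CpG dinucleotides, a number that 24.2% of promoters reached, and 4 GC boxes. CDKN1A had 5253, 5109 and 4032 counts with shScramble, 2357, 2469 and 2316 with guide 2 and 2781, 2711 and 2826 in the libraries labelled guide 1. The CPM were 169.9, 160.4 and 176.6, then 102.2, 98.4 and 105.0, then 97.6, 97.6 and 94.5. All 6 hairpin libraries were below all 3 controls, which both comparisons share, so the 2 differences are not independent. The log2 fold change was -0.73 with guide 2 (standard error 0.0469, adjusted p = 2.59e-13 from edgeR), or 1.66-fold lower, and -0.81 in the libraries labelled guide 1 (standard error 0.0467, adjusted p = 7.96e-15 from edgeR), or 1.75-fold lower. The log2 difference between the hairpins was 0.08 (standard error 0.0475, adjusted p = 0.147 from edgeR), or -0.06 with scaling by library size alone.

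CDKN1B, which encodes p27 (chromosome 12, 12715058 to 12722371, plus strand), was lower by less. It measured 123.8, 128.4 and 135.0 CPM with shScramble, 98.8, 99.8 and 101.8 CPM with guide 2 and 97.8, 99.1 and 98.2 CPM in the libraries labelled guide 1. All hairpin libraries were again below all controls, and the hairpin groups overlapped each other. The log2 fold changes of CDKN1B were -0.37 (adjusted p = 9.07e-08 from edgeR) and -0.39 (adjusted p = 1.34e-08 from edgeR), both short of the 1.5-fold limit. The log2 difference between the hairpins was 0.03 (standard error 0.0459, adjusted p = 0.622 from edgeR), or -0.11 with scaling by library size alone. CDKN1C, the imprinted gene of p57 (chromosome 11, 2883213 to 2885881, minus strand), was not called in any comparison. It measured 7.18, 8.32 and 7.49 CPM with shScramble, 8.50, 7.22 and 5.26 CPM with guide 2 and 6.25, 6.34 and 6.25 CPM in the libraries labelled guide 1. Its guide 2 libraries spread across both other groups, with a log2 fold change of -0.13 (adjusted p = 0.405 from edgeR) that became 0.04 without guide 2 replicate 3. In the libraries labelled guide 1 it was -0.29 (adjusted p = 0.0544 from edgeR).

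Levels of different genes were compared per kilobase of exon, as CPM per kb, and these are described without a test. The divisor was all exon bases annotated for the gene (14617 for MTAP and 1503 for CDKN2D), which can exceed the length of the transcripts present. The order of the genes, the sums and their ratios depend on it. With shScramble the order was CDKN1A (55.4 ± 2.67), CDKN1B (45.9 ± 2.00), CDKN2D (7.25 ± 0.733), CDKN2C (6.58 ± 0.218), CDKN2A (4.37 ± 0.640), CDKN1C (2.96 ± 0.228), MTAP (2.29 ± 0.00982), CDKN2B (0.709 ± 0.0996) and CDKN2B-AS1 (0.0641 ± 0.0206), as mean ± SD of 3 libraries. CDKN2D and CDKN2C were the one pair of neighbours in that order whose libraries overlapped. With guide 2 CDKN1B (35.6 ± 0.552) came before CDKN1A (33.4 ± 1.08), CDKN2C (10.6 ± 0.896) and CDKN2D (10.2 ± 1.01) overlapped, and CDKN2A (1.72 ± 0.216) came after MTAP and CDKN1C. In the libraries labelled guide 1 CDKN2A came first, at 40.5 ± 5.30 CPM per kb, and overlapped CDKN1B (35.0 ± 0.228). CDKN2D (5.71 ± 0.567) and MTAP (5.03 ± 0.245) overlapped too. Summed over the 4 INK4 genes, the level was 18.9 ± 0.94 CPM per kb with shScramble, 22.7 ± 1.58 with guide 2 and 60.2 ± 5.70 in the libraries labelled guide 1. CDKN2A made up 23.1% ± 2.79, 7.56% ± 0.481 and 67.1% ± 2.77 of that sum (SD, n = 3 each). Summed over the 3 CIP/KIP genes it was 104.3 ± 3.96, 71.7 ± 1.06 and 69.1 ± 0.681 CPM per kb. By this measure INK4 RNA was 0.181 of CIP/KIP RNA with shScramble, 0.317 with guide 2 and 0.872 in the libraries labelled guide 1, where the groups did not overlap.

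Genes that act with or on the inhibitors were described from 7 lists of 83 genes, of which 82 were tested. With guide 2, 23 of the 82 were called (28%), 17 higher and 6 lower, at a median log2 fold change of 0.18, and with scaling by library size alone 16 were called, 7 higher and 9 lower. In the libraries labelled guide 1, 28 were called (34.1%), 24 higher and 4 lower, at a median of 0.28. Over all genes the shares called were 29.3% (8.85% higher and 20.4% lower) and 37.7% (21.2% higher and 16.5% lower), so the lists together were not called more often than all genes. Between the hairpins 29 were called (35.4%), 10 higher with guide 2 and 19 lower, or 6 and 23 with scaling by library size alone, beside 47.3% of all genes.

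The targets of the inhibitors, cyclins and their kinases with PCNA, had 6 of 11 tested members called higher and 1 lower with guide 2 (median 0.69), and 5 higher and 1 lower in the libraries labelled guide 1 (median 0.40). The shares of all genes were 8.85% higher and 20.4% lower with guide 2, and 21.2% and 16.5% in the libraries labelled guide 1. Of the D-type cyclins and kinases that INK4 proteins oppose, CCND1, CCND2 and CDK6 were called between the hairpins, and CCND3 (0.58) and CDK4 (0.19) were not. CCND2, a D-type cyclin, had 164, 186 and 133 counts with shScramble, 13, 6 and 6 with guide 2 and 1356, 1247 and 1301 in the libraries labelled guide 1, so its groups were ordered as those of CDKN2A. Its log2 fold changes were -3.97 (adjusted p = 2.79e-15 from edgeR) and 3.00 (adjusted p = 2.62e-21 from edgeR). CDK6 had 8.02 CPM with shScramble, 6.94 with guide 2 and 61.7 in the libraries labelled guide 1 (log2 fold changes -0.21, not called, and 2.94). CDK4, the other kinase partner of INK4 proteins, had 0.37 and 0.18 and was called in neither, and CCND1 had 0.54, not called, and -0.74. CCND3 was called higher with guide 2 (0.96) and not in the libraries labelled guide 1 (0.38). PCNA, the replication clamp that p21 binds, was higher with both (1.17 with guide 2 and 1.32 in the libraries labelled guide 1).

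Among pocket proteins and E2F factors, which act downstream of the CDKs, 5 of 10 were called higher with guide 2 and 7 in the libraries labelled guide 1, and 0 lower in either (medians 0.39 and 0.93). Of all genes, 8.85% and 21.2% were called higher in these comparisons, and 20.4% and 16.5% lower. E2F1 measured 28.0 ± 3.39 CPM with shScramble, 70.2 ± 3.72 with guide 2 and 70.0 ± 1.27 in the libraries labelled guide 1. E2F2 had the largest rise in the libraries labelled guide 1, at 1.98. RB1 itself had log2 fold changes of 0.18 and 0.12 and was not called. On the p14ARF branch, MDM4 fell with guide 2 (-0.81) and CDKN2AIP, a partner of ARF, rose in the libraries labelled guide 1 (0.76), while MDM2 (-0.10 and -0.06) was not called. This list had 1 of 6 called in each comparison with shScramble, beside 29.3% and 37.7% of all genes. Between the hairpins 3 of 6 were called, all lower with guide 2, beside 28.2% of all genes called lower.

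Of 12 genes for the turnover of p21 and p27, 2 were called higher with guide 2, among them SKP2 (0.72), the F-box protein that targets p27, and 3 higher and 1 lower in the libraries labelled guide 1, where DTL, a targeting subunit for p21, had 2.47 and SKP1 -0.59. For this list and the next 3, the shares of all genes called were 8.85% higher and 20.4% lower with guide 2. In the libraries labelled guide 1 they were 21.2% and 16.5%. Of 20 Polycomb and other regulators of the INK4 genes, 2 were called lower with guide 2 and 0 higher, against 4 higher and 2 lower in the libraries labelled guide 1. ID1, an inhibitor of helix-loop-helix factors, was lower in both (-0.98 and -0.95), and RNF2, a Polycomb ubiquitin ligase, was higher in the libraries labelled guide 1 (0.82). BMI1 and EZH2, Polycomb proteins known to repress CDKN2A, were not called against shScramble (-0.55 and -0.16 with guide 2, -0.10 and 0.43 in the libraries labelled guide 1). Between the hairpins EZH2 was called (-0.59, lower with guide 2) and BMI1 (-0.45) was not. Of 10 transcription factors of the CIP/KIP genes and CDKN2B, 2 were called lower with guide 2, with KLF4, an activator of CDKN1A, at -1.96, and 2 higher in the libraries labelled guide 1, with SP1, which binds GC boxes, at 0.73. Of 13 genes of methionine salvage and its partners, 4 were called higher with guide 2, with WDR77, a partner of the methyltransferase PRMT5, at 0.73. In the libraries labelled guide 1, 2 were called higher, with MRI1, the enzyme after MTAP in the pathway, at 1.22, and 0 of the 13 were called lower in either.

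**Figure D5:**
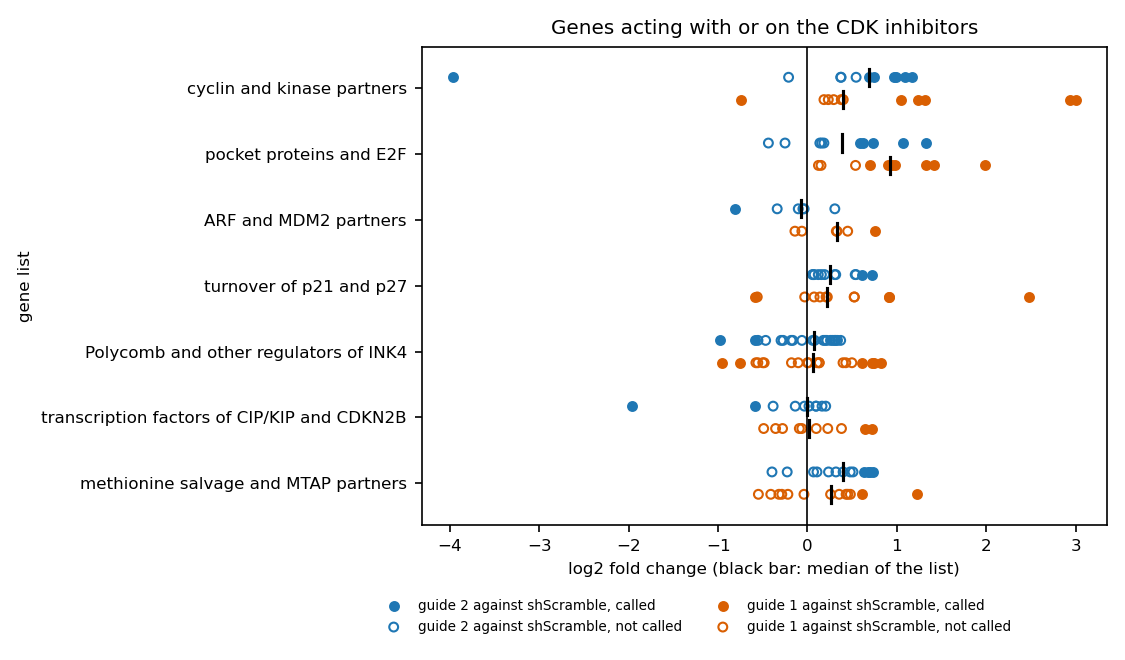
Log2 fold change of each tested gene of the 7 lists of genes that act with or on the CDK inhibitors, for guide 2 (blue) and guide 1 (orange) against shScramble, with filled points for called genes and black bars for list medians. CCND2 stands at -3.97 and 3.00, and the pocket protein and E2F list has medians of 0.39 and 0.93.

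The genes whose pattern was most like that of CDKN2A over the 9 libraries, by Pearson's r of log2 CPM among the 15423 genes that averaged 1 CPM or more, were MEF2A (0.9984), GTF3C3 (0.9983), NME4 (0.998), EPHA4 (0.998) and CYBA (0.9976). They shared the order of the groups and not the size of the differences. MEF2A, a transcription factor, had mean levels of 53.5, 45.0 and 80.4 CPM with shScramble, guide 2 and guide 1, and CYBA, a subunit of the NADPH oxidase, 1.29, 0.271 and 32.3 CPM. For CDKN1A they were COG5 (0.994), TES (0.9937), PLEKHA6 (0.9922), EXOC7 (0.9896) and ZNF160 (0.9888), all lower in both hairpin groups, as TES with 395.8, 245.2 and 226.6 CPM. The libraries fall into 3 groups, so these coefficients describe mostly the 3 group means.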

How the data were processed

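Per the study's methods, the authors removed adapters with TrimGalore, which wraps FastQC and Cutadapt, discarded low-quality reads, aligned with STAR to the Ensembl annotation of GRCh38 and counted reads per gene with FeatureCounts. They deposited the raw counts per gene of each of the 9 libraries, with exon coordinates and no normalization. Tool versions, the strand setting and the treatment of reads matching several genes are not given in the sources used here.

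Everything else was computed from these counts in R 4.3.3. Genes were filtered with edgeR 4.0.16 (filterByExpr, minimum count 10, minimum total 15), scaled by TMM and tested with its quasi-likelihood F test (robust), with all 9 libraries in 1 model and no covariate. Calls needed a 1.5-fold change or more and a Benjamini-Hochberg adjusted p under 0.05. The study used DESeq2, here an alternative (1.42.0). Floors and counting intervals cover counting error only. The 9 genes, the pathway and marker lists and the rule for naming genes (the 9 genes, METTL3, tested genes within 2 Mb, the called gene of each list with the largest rise and fall, the 5 most like CDKN2A and CDKN1A, and markers) were chosen with earlier results of these data known. CDK6, CDK4, CCND3, CDKN2A-DT, MDM2, RB1, BMI1 and EZH2 are named beside the rule, after their values were seen. Some genes of the lists are counted but not reported here by name. A reference table of gene names gave symbols to 41209 Ensembl identifiers (67.9%), the 9 genes included. Promoter sequences are from RefSeq, with windows found for 8 of the 9 genes. The procedure was tested on simulated counts. Replicate libraries correlated at 0.991 to 0.994 and none was a repeat of another.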

Additional observations from a re-analysis of the deposited data

Results flagged for a closer look

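A total of 4 genes are listed because they were called in the direct test of guide 2 libraries against guide 1 libraries, in which the shared shScramble libraries cancel. Of all tested genes 47.3% were called in this test, which compares groups of libraries and cannot separate the hairpin from the transduced line. On the log2 scale the difference was -4.56 for CDKN2A, -2.92 for CDKN2B and -6.50 for CDKN2B-AS1, with guide 2 lower, and 0.84 for CDKN2D, with guide 2 higher. By the quasi-likelihood test of edgeR the adjusted p was 6.25e-09, 4.75e-14, 4.01e-10 and 3.71e-08 respectively, and all 3 guide 2 libraries lay on one side of all 3 guide 1 libraries for each gene. For CDKN2A and CDKN2B the differences of the 2 groups from shScramble had opposite signs and both were called, whereas for CDKN2D neither was called. CDKN2B-AS1 passed the filter through the libraries labelled guide 1 and was not tested with guide 2 when the filter used the 6 libraries of that comparison alone. For CDKN2B-AS1 the value rests on 1 count in the guide 2 libraries against 147 in the libraries labelled guide 1, a ratio of 120 with a 95% exact counting interval of 21.2 to 4760. That interval does not cover reads of CDKN2A on the bases that the genes share. Beside these values stand METTL3, whose log2 fold change was -0.08 in the libraries labelled guide 1 and -0.95 with guide 2, and the 10 genes known to be high in HEK293 lines. All 10 were called lower with guide 2 than with guide 1 (median -6.10), beside 28.2% of all tested genes. The part of METTL3 and of these 10 genes in the differences was not tested.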

How the results depend on the processing

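Over 18 alternatives, 464 of 482 values of the 9 genes kept their direction and their side of the threshold, 7 calls were gained, 7 were lost and 4 values changed sign. The values that changed sign were CDKN1C with guide 2 against shScramble, from -0.13 to 0.04 without guide 2 replicate 3 (range over libraries left out -0.29 to 0.04), and, for guide 2 against guide 1, CDKN1A with library size alone (-0.06) and CDKN1B with library size alone (-0.11) and with a minimum mean of 1 CPM (-0.02). None of these was called. Library size alone moved the median of all genes by guide 2 against shScramble to -0.19, to -0.20 against guide 1, and to -0.03 for guide 1 against shScramble. It also made the MTAP difference between hairpins a call (-0.68). The number of the 9 genes called stayed between 4 and 8 with guide 2, 5 and 8 in the libraries labelled guide 1 and 3 and 6 between hairpins, the upper end with the adjusted p alone. Over all genes the adjusted p alone called 11910, 13188 and 14386, and glmTreat 3261, 4942 and 7117, against 5645, 7265 and 9125. The 9p21 window gave 3 calls (minimum mean of 1 CPM) or 4 (6 libraries) with guide 2, 4 (1 CPM) with guide 1, and 13 (no filter) or 4 (1 CPM) between hairpins. The pathway lists gave 65, 70 and 64 calls with the adjusted p alone and 14 with glmTreat for guide 2. Leaving out single libraries, CDKN2A ranged from -1.42 to -1.23 with guide 2 and from 3.13 to 3.32 with guide 1, CDKN2B from -1.80 to -1.42 and 1.24 to 1.41, and CDKN1A from -0.77 to -0.70 and -0.85 to -0.78. CDKN2B-AS1 ranged from -5.96 to -3.40 with guide 2, with counts of 0 and 1 setting that spread. Same-numbered libraries of different groups did not deviate together (correlations -0.0981 to 0.0529 over 9 pairs, beside -0.0525 to 0.107 over 18 pairs of different number). Of the 9 libraries, 3 correlated best with their own number. The numbers therefore gave no sign of pairing, which this check cannot exclude. With the replicate block 6, 6 and 4 of the 9 genes were called, as without it, and 5494, 7140 and 9027 of all genes. The filter on the mean and the one on the 6 libraries left CDKN2B-AS1 untested. The depth limits what can be said of CDKN2B-AS1, DMRTA1 and the other neighbours with few counts.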
